A study of Rattus norvegicus with 40 samples.

Results

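Messenger RNA of 10 genes that build the mitotic spindle, hold chromosomes to it or control their separation was followed through DEN-induced hepatocarcinogenesis in the rat. The genes were chosen by name, as the rows with the symbols Aurka, Aurkb, Bub1, Bub1b, Tpx2, Tacc3, Spc25, Ube2c, Pttg1 and Cenpw, and all 10 were found among the 17337 genes counted in every library. All 10 had reads in every one of the 40 libraries, and their counts per library ran from 2 to 1338.

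Male Fischer 344 rats, 7 weeks old at the start, received weekly intra-peritoneal DEN (diethylnitrosamine, an alkylating liver carcinogen) at 50 mg/kg. Whole liver RNA was sequenced from 4 rats after 8 weeks of injections (8 w NT), from 4 rats after 14 weeks of injections (14 w NT and 14 w nodules), and from 4 rats that had 14 weeks of injections and then 6 weeks without DEN (20 w NT and 20 w nodules). NT is the non-tumoral part of the liver of a DEN-treated rat, and 2 tumor nodules were taken from each rat at 14 and 20 weeks. The no DEN groups were 4 untreated rats of the same age at each time, so that 24 rats gave 40 libraries. At 14 and 20 weeks the NT sample and both nodules of a rat carry the number of that animal. This pairing was used only in fits with the rat as block. The main test of nodules against NT liver at each time was made without it. Both nodules of an animal were summed into 1 value, which gave n = 4 rats in every group. All treated groups shared strain, sex and dose, and the 20-week groups differ from the 14-week groups in time and in the pause together. No sample of 20 weeks under continued DEN was analysed here, and age and pause cannot be told apart in the treated rats.

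In dividing cells, duplicated chromosomes are captured by spindle microtubules at their kinetochores. Aurora kinase A (Aurka), switched on by its activator Tpx2 and working with the microtubule binder Tacc3, builds the spindle from its poles. Aurora kinase B (Aurkb), the enzyme of the chromosomal passenger complex, corrects wrong attachments, and the kinases and checkpoint proteins Bub1 and Bub1b (BubR1) hold the cell back until every kinetochore is attached. Spc25 is a subunit of the Ndc80 complex, which grips the microtubule, and Cenpw belongs to the inner kinetochore at the centromere. Once the checkpoint is satisfied, the anaphase-promoting complex, supplied with ubiquitin by the conjugating enzyme Ube2c, marks securin (Pttg1) for destruction, which frees separase to cut the cohesin between sister chromatids. Most hepatocytes of an adult liver do not divide, and genes of this kind are raised when hepatocytes enter the cell cycle, as after injury or in a tumor.

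Genes of late cell cycle are known to share 2 short promoter elements, a CHR with the letters TTTGAA and CCAAT boxes read by NF-Y. The promoter stretches printed are those of the 5 members in which TTTGAA was found. All 10 members moved together in the liver samples, including Aurka and Bub1, for which TTTGAA was not found. RefSeq windows of 300 bases (250 before the annotated start and 50 from it, rat build GRCr8) existed for 7 of the 10 members, and none was held for Aurkb, Tpx2 and Ube2c. TTTGAA, on either strand, was in the windows of Bub1b, Cenpw, Pttg1, Spc25 and Tacc3, 5 of 7, and in 13.3% of the 12187 windows of counted genes. CCAAT, on either strand, was in 3 of 7 member windows and in 37.2% of the same 12187. Both were in the windows of Pttg1, Spc25 and Tacc3, and in 5.41% of the windows of counted genes. The E2F letters TTCCCGCC or TTTGGCGC, on either strand, were in 0 of 7 and in 3.95% of the windows of counted genes. No matches in the member windows overlapped, and Pttg1 and Spc25 have 1 further CCAAT each that is not wholly inside the stretch printed. These are letter matches, and neither a match nor its absence shows whether a factor binds. The stretches run 5′ to 3′ along the gene from 150 bases before the annotated start, 170 bases each, with TTTGAA or CCAAT and their reverse complements in capitals. They lie at chr14:81289679-81289848 (Tacc3, minus strand), chr3:74396699-74396868 (Spc25, minus strand), chr10:28406307-28406476 (Pttg1, minus strand), chr3:126016917-126017086 (Bub1b, plus strand) and chr1:29353820-29353989 (Cenpw, plus strand).
Tacc3: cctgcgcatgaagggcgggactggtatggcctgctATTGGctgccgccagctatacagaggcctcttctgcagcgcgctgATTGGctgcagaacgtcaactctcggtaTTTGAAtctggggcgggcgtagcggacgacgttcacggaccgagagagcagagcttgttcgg
Spc25: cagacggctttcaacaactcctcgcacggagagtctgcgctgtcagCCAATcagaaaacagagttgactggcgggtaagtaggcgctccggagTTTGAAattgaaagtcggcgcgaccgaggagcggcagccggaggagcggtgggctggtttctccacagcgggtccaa
Pttg1: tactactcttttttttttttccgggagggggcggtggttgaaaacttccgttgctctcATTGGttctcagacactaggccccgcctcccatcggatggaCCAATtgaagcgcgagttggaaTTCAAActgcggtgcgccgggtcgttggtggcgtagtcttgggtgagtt
Bub1b: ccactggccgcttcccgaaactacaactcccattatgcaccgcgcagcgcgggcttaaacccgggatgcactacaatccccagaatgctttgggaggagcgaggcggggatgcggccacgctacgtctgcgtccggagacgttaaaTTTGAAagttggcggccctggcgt
Cenpw: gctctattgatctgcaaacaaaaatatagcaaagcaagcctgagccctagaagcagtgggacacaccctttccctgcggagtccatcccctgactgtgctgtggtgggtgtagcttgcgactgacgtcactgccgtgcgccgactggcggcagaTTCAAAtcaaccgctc

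Levels are given as CPM, counts relative to the size of the library, which was scaled by trimmed means (TMM). On this scale genes of different length cannot be ranked against each other, so each gene is compared only with itself. Libraries held between 20528515 and 160622633 counted pairs (median 30477421), the largest being the 20 w NT sample of rat H26, with 39355849 in the next. The hepatocyte markers were present throughout, with 10 of 10 over 3 counts in every group. Differences are log2 fold changes from edgeR's quasi-likelihood test over all genes tested, with Benjamini-Hochberg adjusted p. A call between NT liver and no DEN needed a log2 fold change beyond 1 in either direction with an adjusted p up to 0.01. A call in nodules against no DEN or NT liver of the same time needed 0.5 and 0.05. Differences between times needed an adjusted p up to 0.05 at any size. The first pair is that of the study for 8 and 14 w NT, used here at 20 weeks too. The second is the one the study drew in its plots of tumors, taken here as log2 and used for nodules against NT liver too.

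Untreated liver held low amounts of these messages. The SD of log2 CPM had a median over the members of 0.38, 0.22 and 0.49 in the no DEN groups of 8, 14 and 20 weeks. It was 0.14, 0.13 and 0.15 over 10154 genes at a mean of 1 CPM or more over all libraries. At 2 to 149 reads the SD of the members includes counting error. For some members, such as Tacc3 (0.11) and Aurka (0.15) at 8 weeks, it was close to that of these genes. Over the 12 untreated rats Tacc3 ran from 3.23 to 5.11 CPM (median 4.35), Tpx2 from 3.33 to 6.41 (median 4.25) and Aurka from 2.62 to 4.46 (median 3.59). Bub1 was at 1.56 to 3.17 CPM, Aurkb at 0.658 to 2.07 and Ube2c at 0.548 to 2.28. Bub1b was at 0.389 to 1.25 CPM, Spc25 at 0.276 to 1.12, Pttg1 at 0.11 to 1.00 and Cenpw at 0.0718 to 0.826. The lowest untreated samples of Pttg1 and Cenpw held 2 reads each. None of the 9 members tested was called between 8 and 14 weeks or between 14 and 20 weeks of the study without DEN (edgeR, 0 with an unadjusted p under 0.05 in either step, and 0 by DESeq2). The background was 0% of genes called in both steps, and 9.9% and 6.42% with an unadjusted p under 0.05. Cenpw was too low to be tested there. The largest fitted step was that of Spc25 from 8 to 14 weeks, a log2 fold change of 0.48 (SE 0.31).

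After 8 weeks of DEN all 10 members had risen in NT liver, by log2 fold changes of 1.62 (Tpx2) to 2.97 (Spc25) with a median of 2.18. In whole tissue, more cells that express a gene and more RNA of it per cell cannot be told apart. The background was 7.29% of 10812 genes called up, and the median over all genes was -0.01. Every one of the 4 treated rats lay above every one of the 4 untreated rats for all 10 members, against 18% of all genes. The 3 genes of the spindle pole rose least of the 10, and Spc25, Ube2c, Cenpw and Aurkb rose most. Of the spindle pole genes, Tacc3 stood at 4.71, 4.28, 4.03 and 4.75 CPM without DEN and at 13.8, 12.7, 14.9 and 17.2 CPM in NT liver. The groups lay far apart, with the lowest treated rat well above the highest untreated one. Its log2 fold change was 1.71 (SE 0.13, edgeR adjusted p = 1.11e-05). Aurka rose by 1.65 (SE 0.12) and Tpx2 by 1.62 (SE 0.19).

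Of the checkpoint genes at 8 weeks, Bub1b was at 0.389, 0.795, 1.07 and 1.25 CPM without DEN and at 3.33, 2.52, 3.34 and 4.55 CPM in NT liver. The groups did not overlap, and the log2 fold change was 1.95 (SE 0.30, edgeR adjusted p = 0.000923), the largest p among the 10. Bub1 rose by 1.96 (SE 0.20), and Aurkb, whose treated rats lay within 7.14 to 7.76 CPM, by 2.42 (SE 0.15). The kinetochore gene Spc25 went from 0.605, 0.706, 0.276 and 0.751 CPM to 4.66, 4.27, 4.24 and 5.23 CPM. This was the steepest rise of the 10 at that time, with a log2 fold change of 2.97 (SE 0.24, edgeR adjusted p = 1.83e-05). Cenpw rose by 2.50 (SE 0.27). The anaphase genes followed, Ube2c by 2.85 (SE 0.16), from 0.907, 1.24, 1.26 and 1.08 CPM to 9.31, 8.24, 7.24 and 8.02 CPM, and Pttg1 by 2.39 (SE 0.29). Securin was the least even of the 10 among the treated rats, since rat H17 had 2.40 CPM and the others 4.06 to 4.65.

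**Figure D1:**
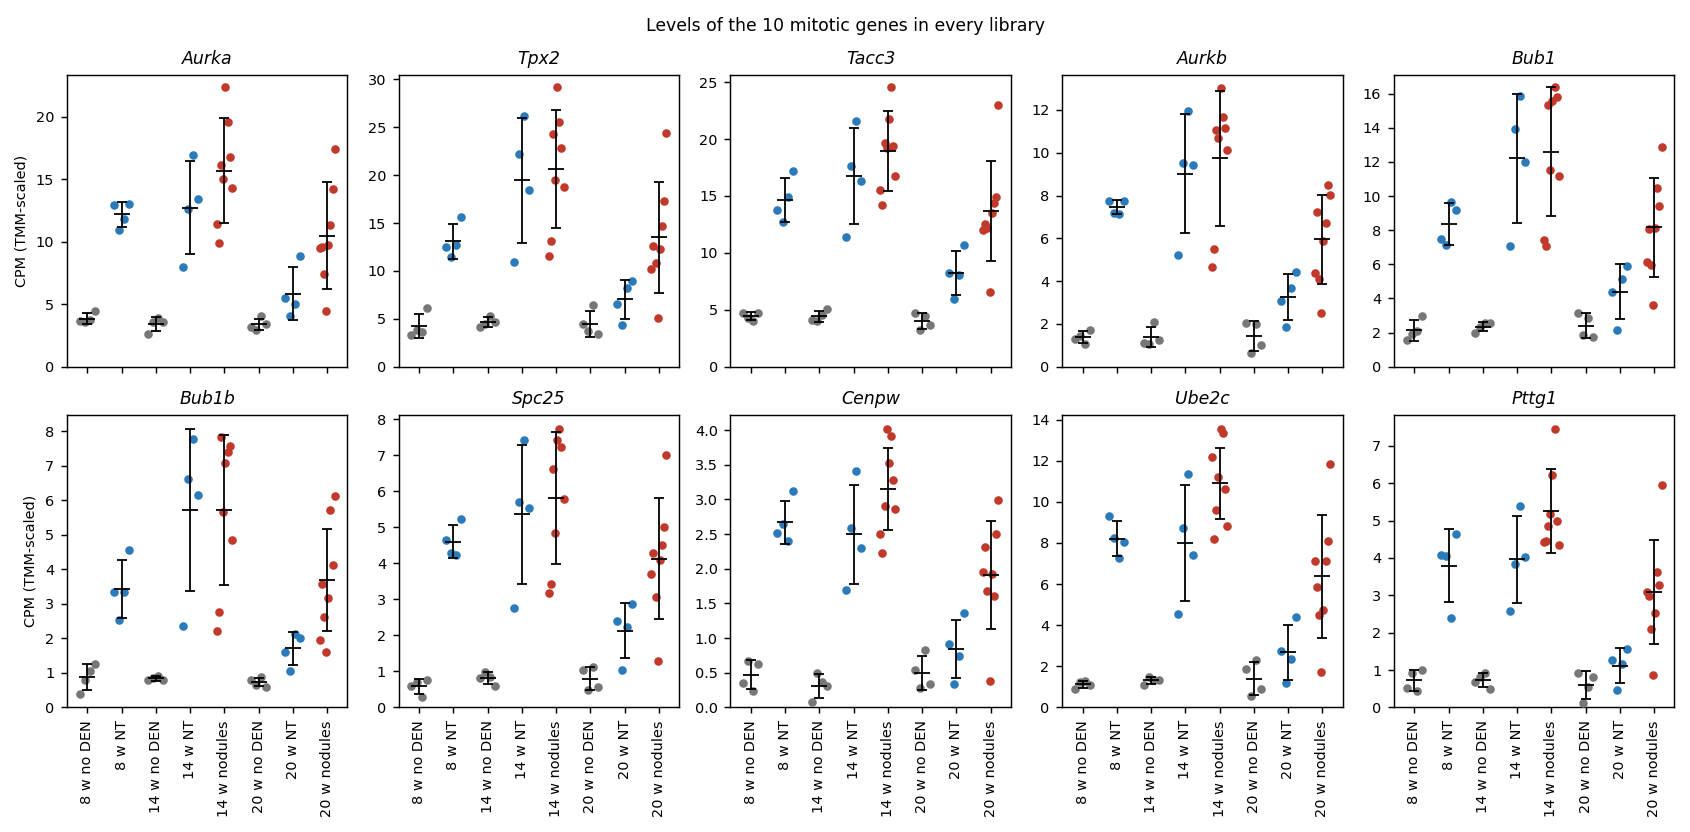
TMM-scaled CPM of the 10 genes (1 panel each, linear axis from 0) in every library of the 8 groups, with points for libraries (grey no DEN, blue NT, red single nodules) and bars for the mean ± SD over 4 rats, the nodules of a rat being added. In all 10 panels the mean of 20 w NT lies above the 3 no DEN groups and below 8 w NT, 14 w NT and both nodule groups.

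At 14 weeks all 10 members were again raised in NT liver, by log2 fold changes of 1.90 (Aurka) to 3.02 (Cenpw) with a median of 2.54, where 13.1% of 11016 genes were called up. No treated rat overlapped an untreated one for any member, against 26.3% of genes that lay wholly above. Tacc3 was at 4.09, 4.0, 4.51 and 5.11 CPM without DEN and at 11.4 (F06), 17.7 (H21), 21.6 (H22) and 16.3 (H23) in NT liver, with a log2 fold change of 1.92 (SE 0.18, edgeR adjusted p = 2.39e-05). Bub1b, which stood at 0.790, 0.866, 0.909 and 0.789 CPM without DEN, reached 2.36, 6.62, 7.79 and 6.15 CPM in the same 4 rats. Its log2 fold change was 2.78 (SE 0.35, edgeR adjusted p = 0.000152). Rat F06 was the lowest and H22 the highest of this group for 10 of 10 members. Cenpw rose by 3.02 (SE 0.38), with 0.0718, 0.495, 0.364 and 0.309 CPM in untreated rats and 1.69, 2.59, 3.41 and 2.30 CPM in NT liver. The untreated rat at 0.0718 CPM had 2 reads of Cenpw, a number at which counting error is large.

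The effect of DEN at 14 weeks was not distinguishable from that at 8 weeks for any of the 10 genes. The interaction of treatment and time called 0 members (edgeR, 0 with an unadjusted p under 0.05, and 0 by DESeq2), while 8.96% of genes were called and 26.6% had such a p. The fitted differences of effects, 14 minus 8 weeks, ran from -0.23 (Ube2c and Spc25) to 0.83 (Bub1b, SE 0.50). Among the means, Bub1b went from 3.43 ± 0.83 CPM (SD, n = 4) in 8 w NT to 5.73 ± 2.35 in 14 w NT, while Ube2c was level at 8.20 ± 0.85 and 8.01 ± 2.82. The spread between rats was wider at 14 weeks, with a median SD of log2 CPM over the members of 0.51 against 0.17 at 8 weeks. Over 10154 genes the median SD was 0.15 in 14 w NT and 0.18 in 8 w NT.

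After the 6 weeks without DEN 2 of the 10 members, Tacc3 and Bub1b, were called in NT liver. The means of the 10 genes over those of untreated liver were between 1.56-fold (Tpx2) and 2.67-fold (Spc25), where they had been 3.71-fold (Aurka) to 8.06-fold (Cenpw) at 14 weeks. Tacc3 had 4.73, 3.23, 4.42 and 3.65 CPM without DEN and 8.20 (F03), 5.91 (H25), 8.07 (H26) and 10.7 (H28) in NT liver. All treated rats were above all untreated ones, and Tacc3 was called (log2 fold change 1.03, SE 0.20, edgeR adjusted p = 0.00393). Bub1b, with 0.780, 0.658, 0.874 and 0.601 CPM against 1.61, 1.05, 2.14 and 2.02 CPM, was the other call (1.24, SE 0.28, edgeR adjusted p = 0.00906). The remaining 8 were not called. The background was 4.89% of 10827 genes called up, and 16.2% lay wholly above the untreated rats, as 2 members did. Both calls depend on single rats. Leaving out 1 rat at a time left between 0 and 4 members called, with 0 without the untreated rats H14 or H16 or the treated rats H26 or H28, 1 without F03, H13 or H15, and 4 without H25.

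The other 8 members kept a positive log2 fold change at 20 weeks, from 0.65 (Tpx2) to 1.41 (Spc25), and 7 of the 10 had an unadjusted p under 0.05, against 23.4% of genes raised at that p. Spc25 came to 1.02, 0.493, 1.12 and 0.558 CPM without DEN and 2.39, 1.05, 2.23 and 2.86 CPM in NT liver. Only rat H25 fell within the untreated range (1.41, SE 0.36, edgeR adjusted p = 0.0154). The 3 members with an unadjusted p above 0.05 were Ube2c, Pttg1 and Cenpw. Pttg1 had 0.927, 0.11, 0.534 and 0.816 CPM without DEN and 1.28, 0.455, 1.17 and 1.56 CPM in NT liver. Here too H25 lay inside the untreated range while the other 3 rats lay above it (0.87, SE 0.48, edgeR adjusted p = 0.205). H25 was the lowest 20 w NT rat for 10 of 10 members, and H28 the highest for 9. Set against the range of all 12 untreated rats, 30 of 40 values in 20 w NT were above its top, against 22.8% of values over 10100 genes at a mean of 1 CPM or more. For 1 member (Tacc3) all 4 rats were, as for 8.98% of these genes. In the other treated groups it was 40 of 40 values and 10 of 10 members, against 14.1% of these genes in 8 w NT, 16.2% in 14 w NT, 17.9% in 14 w nodules and 18.1% in 20 w nodules. The shares of values there were 27.4%, 27.0%, 31.3% and 30.4% in the same order.

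For all 10 genes the effect of DEN in NT liver was fitted as smaller at 20 than at 14 weeks, by -0.89 (Tacc3, SE 0.27) to -2.29 (Cenpw, SE 0.65) on the log2 scale. None passed an adjusted p of 0.05 with edgeR (smallest 0.0866, for Tpx2), although all 10 had an unadjusted p under 0.05, as 17% of 11245 genes did in either direction, and 0.373% of genes were called down. DESeq2 called 7 of the 10, and 6 were called by edgeR without rat F06 and 3 without the 20 w NT sample of H28, so the call of a decline turns on the tool and on these rats.

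**Figure D2:**
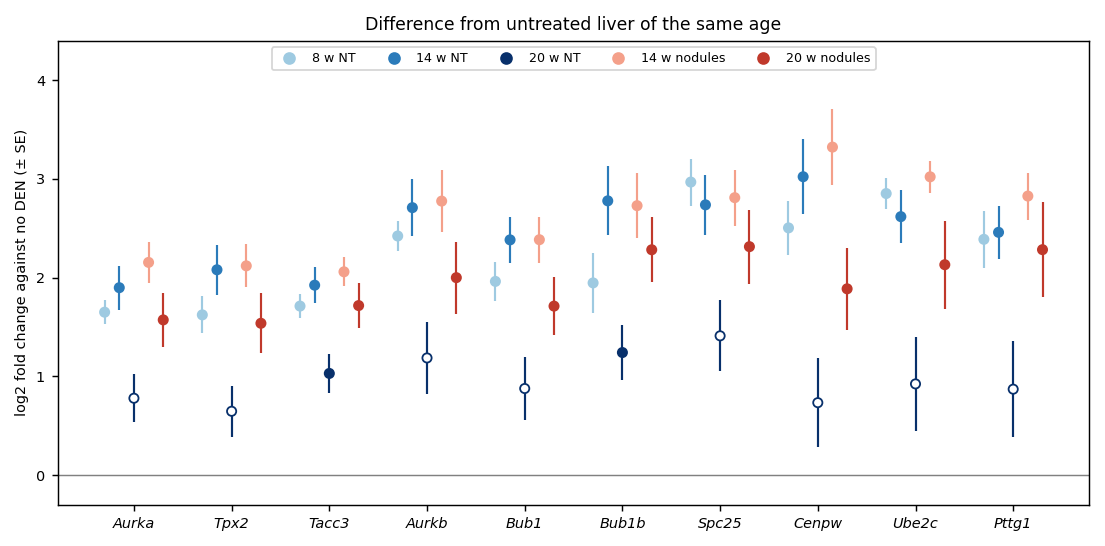
Log2 fold change of each gene against untreated liver of the same age (vertical axis, bars ± SE of edgeR) for NT liver at 8, 14 and 20 weeks and nodules at 14 and 20 weeks, with filled points for calls and open points for values not called. All 20 w NT points are between 0.65 and 1.41, and 8 of 10 are open, while all other points are filled and at 1.54 or higher.

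In the nodules all 10 members were raised over untreated liver at both times. At 14 weeks the log2 fold changes ran from 2.06 (Tacc3) to 3.32 (Cenpw) with a median of 2.75, where 23.9% of 11316 genes were called up. At 20 weeks they ran from 1.54 (Tpx2) to 2.31 (Spc25) with a median of 1.94, where 23.6% of 11199 genes were. These contrasts share their untreated rats with those of NT liver. With the nodules of a rat added, every treated value lay above every untreated one for all 10 genes at both times, against 27.8% and 26.4% of genes. Taken alone, nodule 2 of rat H25 lay within the untreated range of 20 weeks for Tpx2 (5.12 CPM), Ube2c (1.73), Pttg1 (0.879) and Cenpw (0.388). Ube2c, with 1.08, 1.48, 1.35 and 1.34 CPM in untreated rats, had 10.03, 10.3, 13.4 and 9.77 CPM in 14 w nodules (3.02, SE 0.16, edgeR adjusted p = 3.91e-06). At 20 weeks it had 6.36, 2.89, 6.01 and 10.2 CPM in nodules and 1.85, 0.548, 2.28 and 0.902 CPM without DEN (2.13, SE 0.45, edgeR adjusted p = 0.00306). The lowest of these nodule values, that of rat H25, was still above the highest untreated one. The nodule effect itself did not differ between times by the interaction test (0 called with edgeR and 0 with DESeq2, against 0.0862% of genes), and all 10 fitted differences were negative, from -0.35 (Tacc3) to -1.44 (Cenpw, the 1 member with an unadjusted p under 0.05, against 3.26% of genes).

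Nodules were then compared with NT liver of the same rat. At 14 weeks they differed little. Tacc3 was at 11.4 CPM in NT liver and 14.8 in nodules of rat F06, 17.7 and 19.4 in H21, 21.6 and 23.3 in H22, and 16.3 and 18.2 in H23. Bub1b had 2.36 and 2.51 CPM in F06, 6.62 and 6.80 in H21, 7.79 and 7.26 in H22, and 6.15 and 6.30 in H23. The differences within a rat were thus small beside those between rats. No member was called (edgeR, log2 fold changes -0.02 for Bub1b to 0.43 for Ube2c, 0 with an unadjusted p under 0.05, 0 by DESeq2), nor was any gene (0%, with 1348 genes or 11.8% at an unadjusted p under 0.05). With the rat as block there was again no call (0%), and 4 members (Aurka, Ube2c, Pttg1, Cenpw) had an unadjusted p under 0.05, where 9.14% of genes were raised at that p. Ube2c had the largest fitted value there (0.48, SE 0.18, edgeR adjusted p = 0.208), and rat F06, with 4.54 CPM in NT liver and 10.03 in nodules, stood apart from the other 3.

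At 20 weeks the nodules held more of every one of the 10 messages than the NT liver of the same animal. Tacc3 was at 8.20 CPM in NT liver and 12.3 in nodules of rat F03, 5.91 and 8.93 in H25, 8.07 and 14.0 in H26, and 10.7 and 19.5 in H28. Pttg1 was at 1.28 and 3.02 CPM in F03, 0.455 and 1.39 in H25, 1.17 and 3.11 in H26, and 1.56 and 4.79 in H28. Each rat showed the rise, but the rats differed much. The nodule values of H25 lay among the NT values of the other rats, and for Spc25 (2.03 CPM) below all of them. Without the pairing 0 members were called (edgeR, 0% of genes, 10 members with an unadjusted p under 0.05 against 12.4% of genes raised at that p, smallest adjusted p 0.108, and 4 by DESeq2). A fit of all 8 groups by edgeR, also without the pairing, called 9 members (all but Aurkb) and 1096 genes. With the rat as block all 10 were called up, where 9.21% of 11546 genes were. The blocked log2 fold changes ran from 0.69 (Tacc3, SE 0.09) to 1.43 (Pttg1, SE 0.16), and the edgeR adjusted p from 1.27e-05 (Ube2c) to 0.000475 (Cenpw). Securin, Ube2c (1.23, SE 0.12) and Cenpw (1.18, SE 0.18) had the largest values, followed by Bub1b (1.05, SE 0.15). The spindle pole genes Aurka (0.79, SE 0.11), Tpx2 (0.87, SE 0.10) and Tacc3 were at the lower end with Aurkb (0.83, SE 0.11) and Bub1 (0.87, SE 0.11).

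All 80 values of single nodules at 20 weeks (2 nodules, 4 rats, 10 genes) lay above the NT liver of their rat, against 48.7% of such values over 10100 genes. All 8 nodules were above for 10 of 10 members and for 9.48% of genes. At 14 weeks 66 of 80 values did (50.3% over all genes), and all 8 nodules for 5 members and 8.44% of genes. The ratio of added nodules to NT liver had a median over the 10 genes of 1.79 in F03, 1.93 in H25, 2.02 in H26 and 2.1 in H28 at 20 weeks, and of 1.25 in F06, 1.12 in H21, 1.06 in H22 and 1.15 in H23 at 14 weeks. The blocked call of all 10 genes at 20 weeks was unchanged when any 1 rat was left out, and with nodule 1 alone 9 were called and with nodule 2 alone 10.

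**Figure D3:**
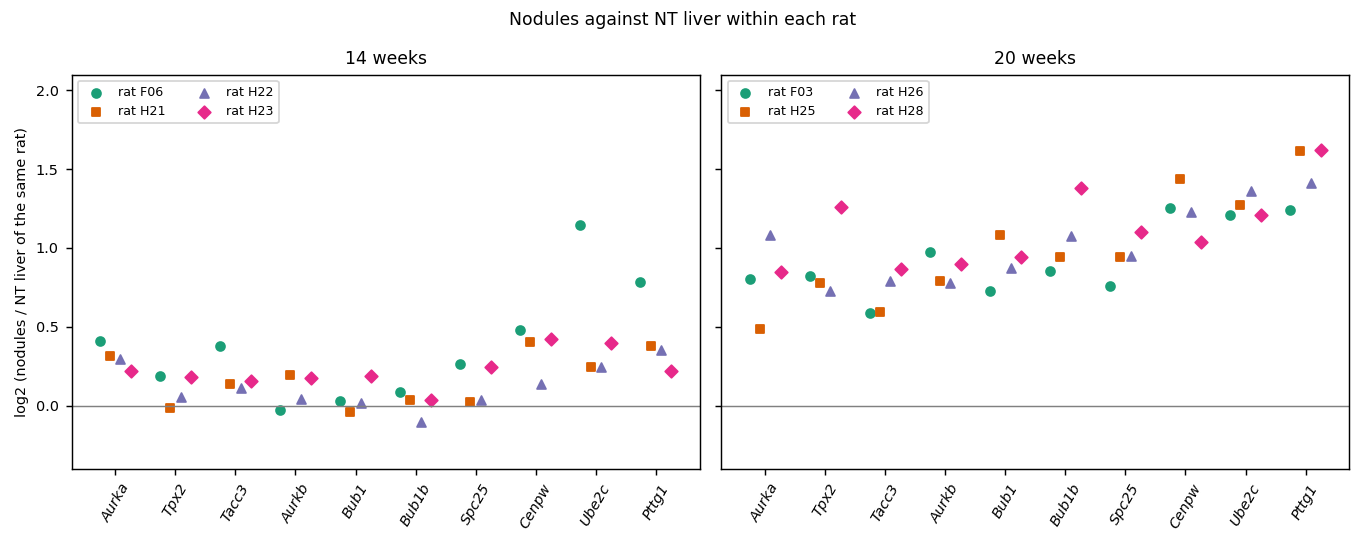
Log2 ratio of the added nodules to NT liver of the same rat (vertical axis) for the 10 genes, with 1 point per rat, at 14 weeks (left) and 20 weeks (right). At 20 weeks all 40 points are above 0, and at 14 weeks 36 of 40 are, most of them close to it.

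Whether this step from NT liver to nodule differed between the times was tested as a difference of differences within rats. It was larger at 20 weeks for all 10 genes in the fit, by 0.50 (Aurka) to 1.06 (Bub1b), with an unadjusted p under 0.05 for each, against 7.9% of genes raised at that p. After adjustment 4 were called, where 0.45% of 11781 genes were called up. They were the checkpoint and passenger genes Bub1 (0.84, SE 0.12), Bub1b (1.06, SE 0.16) and Aurkb (0.75, SE 0.12) and the spindle gene Tpx2 (0.79, SE 0.13), with edgeR adjusted p from 0.0211 (Bub1) to 0.0382 (Tpx2). Spc25 (0.79, SE 0.15) and Pttg1 (1.02, SE 0.19) just missed, with edgeR adjusted p of 0.0507 and 0.0506. This count rests on single rats. It was 0 without F03, H21, H22, H25, H26 or H28, 1 without H23 and 8 without F06, and it was 0 without the block, 0 with nodule 1 alone and 7 with nodule 2 alone.

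Ordering the 8 groups by mean level gave nearly the same order for every gene. The 14 w nodules stood at rank 1 for 9 of 10 members and at rank 2 for Bub1b, where 14 w NT led with 5.73 against 5.72 CPM. The 14 w NT group was at rank 2 for 7, 20 w nodules were at rank 4 for 8, and 8 w NT at ranks 2 to 4. The 20 w NT group was at rank 5 for 10 of 10, and the 3 untreated groups shared the last places in no common order. Neighbours in this order mostly overlapped between rats. The exceptions, where every rat of a group lay above every rat of the next lower one, were 14 w nodules over the next group for Ube2c, 8 w NT over 20 w NT for Bub1b and Tpx2, and 20 w NT over the next untreated group for Tacc3 and Spc25. For Spc25, 1 rat of 20 w NT lay within the range of the untreated rats of its own age all the same.

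The 2 nodules of a rat carried like amounts at 14 weeks, with a median fold between them over the 10 genes of 1.13 in F06, 1.21 in H21, 1.11 in H22 and 1.19 in H23. At 20 weeks the median fold was 1.21 in F03, 1.2 in H26 and 1.40 in H28, and 1.99 in H25. Nodule 1 of H25 was above nodule 2 for 10 of 10 members. Cenpw, at 1.67 and 0.388 CPM in these 2 nodules, differed by 4.32-fold, Ube2c (4.51 and 1.73 CPM) by 2.61-fold and Aurkb (4.11 and 2.53 CPM) by 1.62-fold, the least of the 10. In H28 nodule 2 was higher for 9 of 10, with Tpx2 at 17.3 and 24.4 CPM. The SD of log2 CPM over the 8 single nodules had a median over the members of 0.66 at 20 weeks and 0.42 at 14 weeks. Over the 10154 genes at a mean of 1 CPM or more it was 0.26 and 0.27. The spread over nodules holds the differences between rats, those between the nodules of a rat and counting error together.

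**Figure D4:**
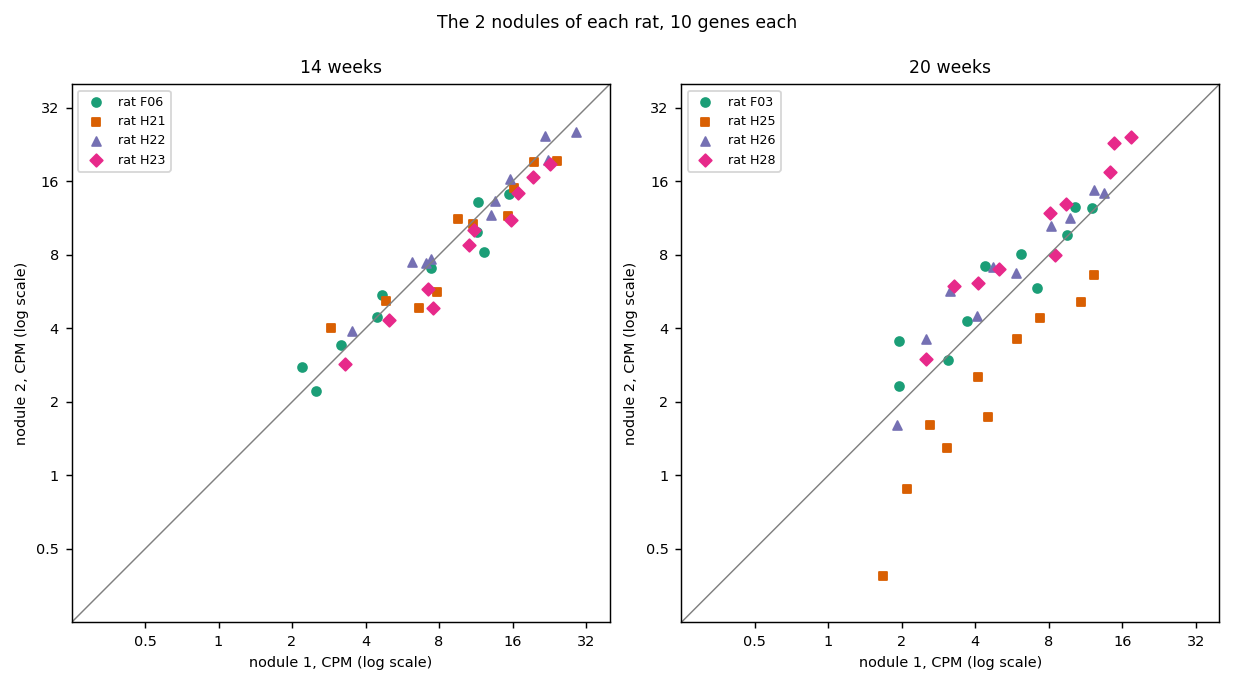
Level of each of the 10 genes in nodule 1 (horizontal, CPM, log scale) and nodule 2 (vertical, CPM, log scale) of the same rat, with 1 symbol per rat, at 14 and 20 weeks; the line marks equal levels. At 20 weeks the 10 points of rat H25 lie below the line, from 1.62-fold to 4.32-fold, and 9 of 10 points of H28 and of H26 lie above it.

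Over the 32 values of rat and tissue the 10 genes were strongly alike, with Pearson's r of log2 CPM of 0.898 (Bub1b and Cenpw) to 0.989 (Bub1 and Tpx2) in 45 pairs, median 0.956. These points share the group differences and, at 14 and 20 weeks, the animal. With the group means taken away the range was 0.498 (Bub1b and Pttg1) to 0.934 (Bub1 and Tpx2), median 0.770. Pttg1 (0.740), Bub1b (0.763) and Cenpw (0.790) followed the mean of the other 9 least closely within groups, and Tpx2 (0.919) and Aurkb (0.917) most closely. The genes outside the 10 with the most similar profile over these values were Cdk1 (r = 0.995 with the members' mean), the kinase that drives mitosis, its cyclin partner Ccnb1 (0.991), the spindle gene Spag5 (0.991), and the mitotic kinesins Kif22 (0.989) and Kif20a (0.989). At r of at least 0.9 there were 252 of 10090 genes, so the profile is that of a large group of genes. Cdk1 followed the same course, with means of 2.57 CPM in 14 w no DEN, 17.7 in 14 w NT, 22.4 in 14 w nodules, 6.45 in 20 w NT and 14.2 in 20 w nodules.

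Mki67, the gene of the proliferation antigen Ki67, averaged 5.94, 5.47 and 6.19 CPM in the untreated groups (8, 14 and 20 weeks), 29.9, 41.4 and 14.6 in NT liver, and 45.2 and 30.7 in nodules at 14 and 20 weeks. The members did not all keep step with it at 14 weeks. The log2 ratio of Tacc3 to Mki67 was -0.28 ± 0.24 (SD, n = 4) in 14 w no DEN and -1.28 ± 0.14 in 14 w NT, that of Aurka -0.66 ± 0.33 and -1.69 ± 0.16, and that of Tpx2 -0.22 ± 0.26 and -1.10 ± 0.04. The ratio of Bub1 went the same way, from -1.19 ± 0.27 to -1.76 ± 0.05. That of Aurkb was at -2.01 ± 0.28 and -2.19 ± 0.11 and that of Bub1b at -2.68 ± 0.36 and -2.92 ± 0.31. Those of Spc25, Ube2c and Pttg1 were lower in NT liver too, by 0.22, 0.34 and 0.45, and that of Cenpw went from -4.41 ± 1.25 to -4.03 ± 0.13. At that time the ratios of the spindle pole genes and Bub1 differed between untreated and NT liver by more than the larger SD, and those of the other 6 by less. In its lowest untreated rat Bub1 had 34 reads, the fewest of these 4 genes, and Aurkb had 12, the most of the other 6. The part of read depth in this split was not tested. At 8 weeks the ratio was -0.36 ± 0.45 without DEN and -1.03 ± 0.13 in NT liver for Tacc3, -0.56 ± 0.34 and -1.29 ± 0.13 for Aurka, and -0.47 ± 0.22 and -1.20 ± 0.10 for Tpx2. These and Bub1 were again the 4 that differed by more than the larger SD. For 5 members the ratio was higher in NT liver at 8 weeks, by less than that SD, the most for Spc25 (-3.38 ± 0.77 and -2.70 ± 0.05) and Ube2c (-2.35 ± 0.54 and -1.87 ± 0.20). At 20 weeks it was -0.60 ± 0.21 and -0.76 ± 0.36 for Tacc3, less apart than the larger SD, -0.84 ± 0.29 and -1.28 ± 0.38 for Aurka, and -0.46 ± 0.18 and -1.002 ± 0.23 for Tpx2. Beyond the larger SD at 20 weeks were Aurka, Tpx2, Bub1 and Cenpw, lower in NT liver, and Spc25, higher. No test was run on these ratios.

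Partners of these genes were taken from 4 lists of the same pathway. Beside their counts stand the shares of all genes called up in the same contrasts, which were 7.29% in NT liver at 8 weeks, 13.1% at 14 weeks and 4.89% at 20 weeks, and 9.21% in 20 w nodules against NT liver with the rat as block. Of the other checkpoint and passenger genes 9 of 12 were called up in NT liver at 8 weeks and again at 14 weeks (medians 1.43 and 2.05), 0 of 12 at 20 weeks, and 9 of 12 in 20 w nodules against NT liver with the rat as block. The nodule counts used the lower thresholds. The median of this list at 20 weeks was 0.80 in NT liver and 0.76 in nodules over NT liver. In 20 w NT 8 of the 12 were higher and 0 lower at an unadjusted p under 0.05 (edgeR), against 23.4% of all genes raised at that p. The passenger subunits Birc5 (2.13, SE 0.21), Incenp (2.03, SE 0.22) and Cdca8 (2.08, SE 0.24) and the checkpoint gene Mad2l1 (1.67, SE 0.22) rose at 14 weeks beside Aurkb. The kinase Ttk (Mps1) rose most (2.85, SE 0.25). Bub3, which carries Bub1 and Bub1b to the kinetochore, was not called in any of these contrasts, with means of 28.5 ± 2.22 CPM in 14 w no DEN and 30.6 ± 1.2 in 14 w NT, and Mad1l1 and Zw10 were not called either (-0.14 and 0.07).

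Of the kinetochore genes 17 of 23 were called up in NT liver at 8 and at 14 weeks (medians 1.93 and 2.13), 0 of 20 tested at 20 weeks, and 16 of 23 in 20 w nodules over NT liver with the block. Their median at 20 weeks was 0.87 in NT liver and 0.73 in nodules over NT liver. In 20 w NT 11 of the 20 were higher and 0 lower at an unadjusted p under 0.05 (edgeR), against 23.4% of all genes raised at that p. The partners of Spc25 in the Ndc80 complex rose with it at 14 weeks, Ndc80 by 2.86 (SE 0.33) and Nuf2 by 2.94 (SE 0.30). Cenpf (3.17, SE 0.34), a large protein of the outer kinetochore, was the highest of those at a mean of 1 CPM or more. Mis12 (0.11, SE 0.14), of the complex that links inner and outer kinetochore, was the lowest, and Cenpc, Cenpl, Cenpm, Pmf1 and Ska2 were also not called. Of the spindle and cytokinesis genes 16 of 24 were called up at 8 weeks, 17 of 25 at 14 weeks, 0 of 24 at 20 weeks, and 17 of 25 in 20 w nodules over NT liver with the block. Their median at 20 weeks was 0.91 in NT liver and 0.90 in nodules over NT liver. In 20 w NT 20 of the 24 were higher and 0 lower at that unadjusted p (edgeR). Ckap2, a microtubule binder, rose most at 14 weeks (3.34, SE 0.27), and Tubg1, the gamma tubulin that nucleates microtubules in all cells, was at 0.13 (SE 0.10). The relatives of Tacc3 took other courses. Tacc1 was raised by 0.79 (SE 0.09) at 8 weeks and 0.82 (SE 0.09) at 14 weeks, below the threshold on size. Tacc2 was level at 8 weeks (12.03 ± 1.48 and 12.2 ± 1.62 CPM) and rose at 14 weeks from 10.48 ± 1.36 to 28.9 ± 8.73 CPM (1.47, SE 0.22, edgeR adjusted p = 0.000657). At 20 weeks Tacc2 was at 19.0 ± 2.77 CPM in NT liver and 39.7 ± 11.8 in nodules, the highest group for that gene.

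Of 26 genes of the anaphase-promoting complex, separase and cohesin, 3 were called up in NT liver at 8 weeks, 4 at 14 weeks, 1 of 25 at 20 weeks, and 3 in 20 w nodules over NT liver with the block, with medians near 0 (-0.03, 0.18, 0.02 and 0.04). These counts are near what 7.29%, 13.1%, 4.89% and 9.21% of such a list would give. The separase gene Espl1 (3.18, SE 0.36) and the activator Cdc20 (2.17, SE 0.30) were among the calls at 14 weeks, and Espl1 was the call at 20 weeks (1.48, SE 0.32, edgeR adjusted p = 0.00716). Core subunits of the complex were not called, Anapc1 at 0.31, Anapc2 at 0.30 and Cdc27 at 0.30, and Anapc11 was at -0.72 (SE 0.07), inside the threshold on size. Fzr1, the activator used outside mitosis, was at 0.08. Ube2s, the enzyme that lengthens the ubiquitin chains Ube2c starts, was at 0.53 (SE 0.09) beside 2.62 (SE 0.27) for Ube2c.

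**Figure D5:**
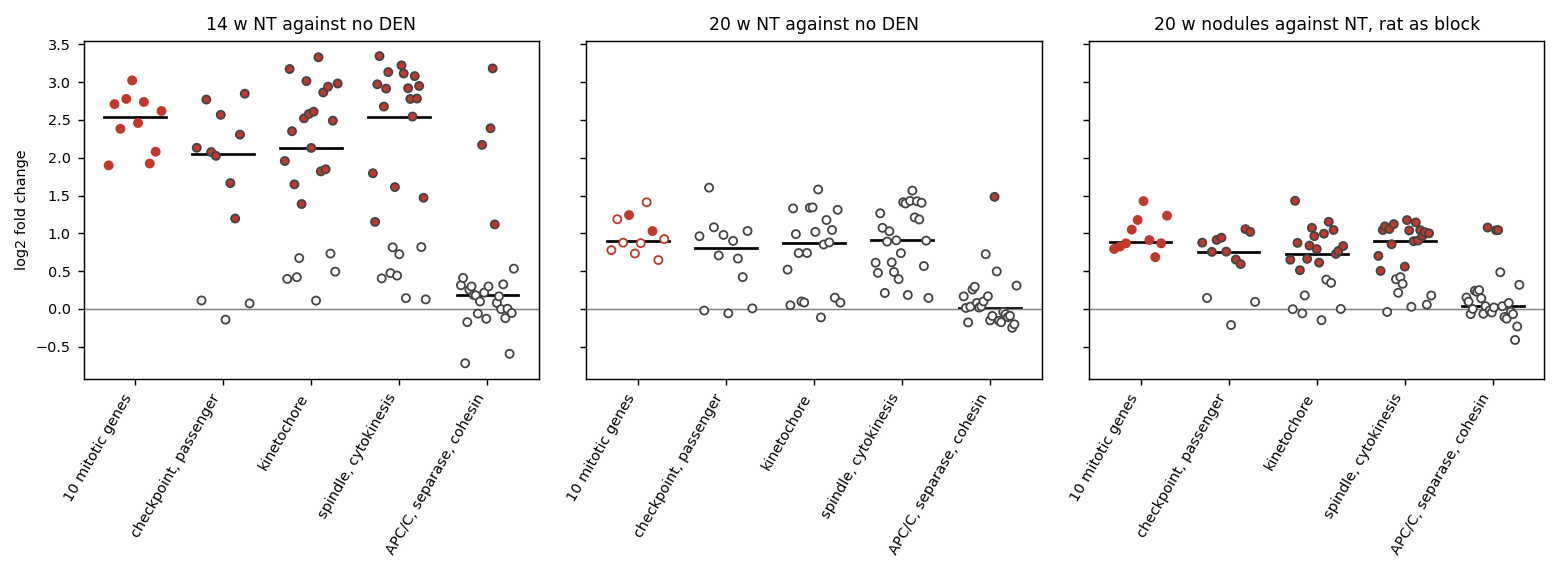
Log2 fold change of the 10 genes and of the 4 lists of partner genes (1 point per gene, black line at the median, filled where called) for NT liver against no DEN at 14 and 20 weeks and for nodules against NT liver at 20 weeks with the rat as block. In NT liver at 14 weeks the medians are 2.54 for the 10 genes, 2.05, 2.13 and 2.55 for checkpoint, kinetochore and spindle genes, and 0.18 for the anaphase-promoting complex, separase and cohesin.

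Markers of some other liver cells were also raised in DEN-treated liver. The shares of all genes called up, 7.29% at 8 weeks, 13.1% at 14 weeks and 4.89% at 20 weeks in NT liver, apply to their counts too. Leukocyte markers (8 of 9 listed were in the files) summed to 13.8 to 23.02 CPM without DEN and 36.3 to 41.2 CPM in NT liver at 8 weeks, with 4 of 7 tested called up. At 14 weeks they summed to 11.8 to 16.5 CPM without DEN, 20.8 to 39.3 in NT liver and 19.8 to 40.6 in nodules, with 0 of 5 called in NT liver, and at 20 weeks to 10.2 to 20.1, 19.3 to 30.0 and 20.9 to 25.8 CPM. Cholangiocyte markers (5 of 6 in the files) went at 14 weeks from 16.4 to 24.3 CPM without DEN to 40.4 to 90.5 in NT liver, with 5 of 5 called up, and at 20 weeks from 18.04 to 22.7 CPM to 35.7 to 57.2 in NT liver, with 3 of 5 called up, and 72.4 to 190 in nodules. At 20 weeks these markers had a median log2 fold change of 2.55 in NT liver, where that of the members was 0.90. Stellate cell markers (8 of 8 in the files, with Col1a2 listed at 0 in every group) summed at 8 weeks to 211 to 257 CPM without DEN and 359 to 483 in NT liver, with 3 of 7 called up, and at 14 weeks to 209 to 262 CPM without DEN and 379 to 484 in NT liver, with 4 of 7 called up. Endothelial markers (6 of 6) summed to 91.5 to 144 and 184 to 230 CPM in the 14 w groups, with 3 of 6 called up. Macrophage markers (7 of 7) were at 295 to 447 and 292 to 731 CPM, with 0 of 7 called at 8, 14 or 20 weeks. The 10 hepatocyte markers summed at 14 weeks to between 286840 and 323310 CPM without DEN, 195080 and 242380 in NT liver, and 171700 and 205930 in nodules. Most of this sum is Alb (mean 215830 CPM in 14 w no DEN and 141140 in NT liver). In NT liver 1 of the 10 was called down, and the median log2 fold change of the list was -0.57. At 8 weeks 0 of 5 cholangiocyte, 0 of 6 endothelial and 0 of 10 hepatocyte markers were called in NT liver by edgeR, where 5, 5 and 2 were higher and 0, 0 and 4 lower at an unadjusted p under 0.05. At 20 weeks 0 of 7 stellate cell, 0 of 6 endothelial, 0 of 6 leukocyte and 0 of 10 hepatocyte markers were called by edgeR, where 4, 5, 4 and 1 were higher and 1, 0, 0 and 5 lower at that p. In nodules against no DEN, where 23.9% and 23.6% of genes were called up and 15.2% down at 14 and 20 weeks, 7 of 10 hepatocyte markers were called down and 1 up at both times. Called up at both times were 5 of 5 cholangiocyte, 5 of 7 stellate cell and 4 of 6 endothelial markers. Of the leukocyte markers 4 of 7 were called up in 14 w and 3 of 7 in 20 w nodules, and of the macrophage markers 1 of 7 and 2 of 7. The part of these shifts in the rise of the members was not tested. In 20 w nodules against NT liver with the rat as block, where all 10 members rose, and where 9.21% of genes were called up and 5.46% down, 0 of 7 leukocyte markers were called, 2 of 7 macrophage and 5 of 10 hepatocyte markers were called down, and 3 of 5 cholangiocyte and 1 of 7 stellate cell markers were called up, with 0 of 6 endothelial markers called.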

How the data were processed

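RNA-seq libraries of rat liver (stranded mRNA kit) were analysed from the raw counts per gene that the authors deposited for each of them. The authors aligned read pairs to rn6 with STAR 2.7.1a and counted pairs lying wholly within exons of 1 gene with HTSeq, on the reverse strand, leaving out pairs that aligned to several places. The depth of each library is the sum of these counts; summary lines of the counting were kept out. No filter or scaling had been applied to the counts.

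Samples were grouped from their titles (time, treatment, tissue, rat). Both nodules of an animal were summed. Each comparison used its own groups, filterByExpr, TMM scaling and the quasi-likelihood test of edgeR 4.0.16 (robust, 2-sided), run in R 4.3.3, and p was adjusted after Benjamini and Hochberg over all genes tested. DESeq2, the tool named by the study, was run as an alternative (version 1.42.0), beside RLE scaling, no filter, all 8 groups in 1 fit, single nodules, leaving out each rat, and leaving out the 4 rats numbered F, which no untreated rat is. The rat was a block in the test of the nodule step between times and an alternative elsewhere. NT liver and nodules share the number of the animal, and their deviations from the group means correlated within every rat (r of 0.37 to 0.55 over 11494 genes). Differences between times in untreated rats and in effects were called at an adjusted p of at most 0.05, at any size. SE is the size of the log2 fold change divided by the root of F. Log2 CPM used a prior count of 2. The fits were also run on simulated counts, drawn independently for each sample without a shared effect of the rat. That run cannot test the pairing within rats. The libraries hold no unique molecular identifiers. The p-values come from fits to counts, in which the spread between rats and counting error both enter.

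The members, the lists of partner and marker genes and the tests were chosen with earlier results of these data known, and Tacc3, Spc25, Ube2c, Pttg1 and Cenpw are genes the study itself names. All 10 members were described. From each list the genes with the largest and the smallest change in 14 w NT at a mean of at least 1 CPM were named, with the nearest relatives of the members, Mki67 and the 5 most alike genes; genes named beyond these were chosen after their values were seen. Of the partner lists 12 of 16, 23 of 30, 25 of 32 and 26 of 28 symbols were in the files. Promoter sequences are RefSeq's (GRCr8), another build than that of the counts. A search of protein sequences for destruction motifs could not be made.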

Additional observations from a re-analysis of the deposited data

Results flagged for a closer look

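In 14 w nodules Ube2c was higher in rat H22, at 13.4 CPM, than in the other 3 rats, which lay between 9.77 and 10.3 CPM, a gap large for the range of a group of 4. This was 1 of 80 groups of 4 rats examined over the 10 genes, and chance alone gives about 1 in 20. H22 was the highest rat of that group for all 10 genes.

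The step from NT liver to nodules differed between 20 and 14 weeks, by the interaction test with the rat as block, for 4 genes. The difference on the log2 scale was 0.75 for Aurkb, 0.84 for Bub1, 1.06 for Bub1b and 0.79 for Tpx2. The step was fitted as larger at 20 weeks for the other 6 members too, without passing the adjusted threshold. The count of 4 is not stable. It fell to 0 without any 1 of 6 of the 8 rats (F03, H21, H22, H25, H26 or H28), with nodule 1 alone and without the block, and was 8 without F06.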

How the results depend on the processing

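The counts of 10 members called in NT liver at 8 and 14 weeks and in nodules against no DEN at both times kept their values under every alternative run, as did the counts of 0 in nodules against NT liver at 14 weeks, in the untreated rats, and in the interactions of NT liver (14 against 8 weeks) and of nodules. The 20 w NT count of 2 became 1 without the F rats and 0 to 4 without single rats. In 20 w nodules against NT liver the members called were 0 without a block, 10 with the rat as replicate block, 4 with DESeq2, 9 with all 8 groups in the fit and no block, and 0 to 1 without single rats; in blocked fits chosen after seeing the data they stayed at 9 or 10. The weaker NT effect at 20 weeks (0 called) gave 7 with DESeq2, 3 without the F rats and 0 to 6 without single rats. The difference of nodule steps (4 called) gave 7 with DESeq2, 8 without the F rats, 0 with nodule 1 alone, 7 with nodule 2 alone, 0 with no replicate block and 0 to 8 without single rats. The causes were not tested. The block changed no other call of members.

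Counts over all genes moved more than 1.5 times in these cases. With DESeq2 they were 35 (14 w nodules against NT, from 0), 902 (20 w nodules against NT, from 0), 31 and 39 (untreated rats, 14 against 8 and 20 against 14 weeks, from 0), 1529 (NT effect, 14 against 8 weeks, from 1005), 382 (NT effect, 20 against 14 weeks, from 83), 29 (nodule effect, from 10) and 241 (difference of nodule steps, from 53). In the fit of all 8 groups they were 1096, 1, 151, 41 and 16 (20 w nodules against NT, untreated 14 against 8 weeks, both NT effects in that order, nodule effect). Without the filter both untreated steps gave 2. Without the F rats the NT effect at 20 against 14 weeks gave 182 and the difference of nodule steps 137. Nodule 1 alone gave 218 (20 w nodules against NT), 5 (nodule effect) and 0 (difference of steps), and nodule 2 alone 1658 for the last. With the replicate block 20 w nodules against NT gave 1693, and with none the difference of steps gave 0. Without single rats the ranges were 250 to 649 (20 w NT), 0 to 445 (20 w nodules against NT), 0 to 166 and 0 to 2 (untreated), 533 to 1870 and 31 to 408 (NT effects), 6 to 15 (nodule effect) and 7 to 187 (difference of steps).

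Changes of sign were seen in values close to 0 that were not called. In 14 w nodules against NT the log2 fold change of Bub1b was 0.0031 with all 8 groups in the fit and 0.11 with nodule 1 alone, Bub1 was -0.087 and Tpx2 -0.021 with nodule 2 alone, and without single rats Bub1 ran from -0.011 to 0.065 and Bub1b from -0.036 to 0.027. In the NT effect at 14 against 8 weeks Ube2c was 0.050 without the F rats, and without single rats Spc25 ran from -0.45 to 0.0080 and Pttg1 from -0.14 to 0.25. In untreated rats at 20 against 14 weeks Spc25 was 0.00047 with DESeq2 and 0.0036 with RLE scaling. Without single rats the untreated values at 14 against 8 weeks ran from -0.24 to 0.14 (Aurkb), -0.30 to 0.16 (Bub1b), -0.059 to 0.063 (Tacc3) and -0.16 to 0.22 (Pttg1), and at 20 against 14 weeks from -0.11 to 0.063 (Aurka), -0.15 to 0.32 (Aurkb), -0.12 to 0.18 (Bub1), -0.26 to 0.086 (Tpx2), -0.21 to 0.15 (Spc25), -0.24 to 0.35 (Ube2c) and -0.48 to 0.083 (Pttg1). Of 1946 values of single members under the alternatives, 1785 kept direction and call, 62 passed and 49 lost the threshold, and 50 changed sign. Depth was lowest for Cenpw, Pttg1 and Spc25, with 2, 2 and 7 reads in the lowest untreated rats, though the SE of their fold changes was not the largest in every comparison (Bub1b had it at 8 weeks).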
